A study of Mus musculus with 3 samples.

Results

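The genes described here are the members of groups B, E and F of the Sox family of transcription factors that are listed as Sox1, Sox3, Sox14, Sox21, Sox7, Sox17, Sox18, Sox8, Sox9 and Sox10. They were followed through 2 lists of genomic regions called as carrying histone H2A with ubiquitin on a lysine of its tail (H2AK119ub). A region belonged to a member when the authors' annotation named the gene for it, whatever its location class, or when it overlapped the bounds of the gene in mm10. By this rule 9 of the 7838 regions of replicate 1 and 8 of the 8093 regions of replicate 2 belonged to the 10 genes, out of 21631 autosomal and X-linked protein-coding genes. Both replicates came from control mice at postnatal day 0, with no other allele or treatment in the labels. Tongues were trimmed of the circumvallate papillae, the large taste papillae at the back of the tongue, and cells were sorted by EpCAM, a surface protein of epithelia, before chromatin immunoprecipitation and sequencing (ChIP-seq). The submitters describe the 2 replicates as biological. With 1 group of samples, the values are compared between genes and between replicates. The input library was not used here.

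Sox proteins bind DNA through a high-mobility-group box related to that of the sex-determining factor Sry, and the letter of a group follows the similarity of that box. Group B proteins act in neural progenitors, with Sox1 and Sox3 (B1) known mainly as activators and Sox14 and Sox21 (B2) mainly as repressors. Group E proteins act in the neural crest and its glial, pigment and cartilage descendants, and group F proteins in blood and lymphatic vessel endothelium and in endoderm. H2AK119ub is deposited by Polycomb repressive complex 1 (PRC1), which keeps developmental genes of other lineages silent and is known to gather at promoters rich in unmethylated CpG dinucleotides. The lists record where the mark was called and hold no height, read count or RNA level, so depth is unknown and every value below is a presence, a position or a width.

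The promoters of Sox1, Sox14, Sox21 and Sox8, the 4 members held by the promoter table, are shown for their CpG dinucleotides, written in capitals, which are known to draw Polycomb complexes. Regions lay over these promoters in both replicates. Each line is the 250 bases before the transcription start, 5′ to 3′ on the strand of the gene, from RefSeq on GRCm38.p6 (mm10). Sox1 lies at chr8:12395269-12395518 on the plus strand. Sox14 lies at chr9:99876171-99876420, Sox21 at chr14:118237031-118237280 and Sox8 at chr17:25570687-25570936, each on the minus strand. Sox15 (group G, chr11:69654787-69655036) and Sox30 (group H, chr11:45980060-45980309), both on the plus strand, had no region at their promoters in either list and are given as a CpG-poor and a CpG-rich example of an unmarked Sox gene.
Sox1: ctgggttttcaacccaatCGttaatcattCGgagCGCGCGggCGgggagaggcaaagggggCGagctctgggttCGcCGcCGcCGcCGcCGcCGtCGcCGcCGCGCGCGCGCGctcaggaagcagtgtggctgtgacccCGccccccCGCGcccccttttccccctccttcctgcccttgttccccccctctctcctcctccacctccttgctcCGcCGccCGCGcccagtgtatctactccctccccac
Sox14: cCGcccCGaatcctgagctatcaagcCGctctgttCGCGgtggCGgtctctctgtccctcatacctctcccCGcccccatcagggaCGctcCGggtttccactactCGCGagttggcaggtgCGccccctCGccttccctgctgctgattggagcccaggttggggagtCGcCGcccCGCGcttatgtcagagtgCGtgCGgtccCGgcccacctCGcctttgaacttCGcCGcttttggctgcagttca
Sox21: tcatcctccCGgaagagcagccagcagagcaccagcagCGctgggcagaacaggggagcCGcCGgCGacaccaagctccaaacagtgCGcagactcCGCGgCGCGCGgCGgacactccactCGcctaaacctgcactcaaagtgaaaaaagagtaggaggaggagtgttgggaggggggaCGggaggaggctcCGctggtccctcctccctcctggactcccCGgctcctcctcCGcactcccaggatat
Sox8: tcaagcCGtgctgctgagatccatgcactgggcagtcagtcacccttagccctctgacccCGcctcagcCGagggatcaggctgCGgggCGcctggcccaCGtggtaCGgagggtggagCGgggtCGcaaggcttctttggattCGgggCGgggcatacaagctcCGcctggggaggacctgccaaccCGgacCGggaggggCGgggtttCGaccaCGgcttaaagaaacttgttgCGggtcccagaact
Sox15: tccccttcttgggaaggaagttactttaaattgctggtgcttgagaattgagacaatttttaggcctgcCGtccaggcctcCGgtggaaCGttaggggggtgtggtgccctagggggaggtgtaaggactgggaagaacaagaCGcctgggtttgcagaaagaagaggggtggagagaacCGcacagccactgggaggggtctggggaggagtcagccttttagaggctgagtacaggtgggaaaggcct
Sox30: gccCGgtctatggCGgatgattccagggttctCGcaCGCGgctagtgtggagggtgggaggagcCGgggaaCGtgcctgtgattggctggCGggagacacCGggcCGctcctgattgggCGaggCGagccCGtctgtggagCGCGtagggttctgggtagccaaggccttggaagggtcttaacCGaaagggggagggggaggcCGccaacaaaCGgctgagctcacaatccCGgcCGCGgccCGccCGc
These stretches hold 29 CpG dinucleotides for Sox1, 23 for Sox14, 17 for Sox21 and 18 for Sox8, while those of the unmarked genes hold 5 for Sox15 and 23 for Sox30.

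Of the 10 genes, 8 were marked, meaning that a promoter region named the gene in both replicates. The 8 were Sox1, Sox14, Sox21, Sox7, Sox17, Sox8, Sox9 and Sox10, and the 2 without a region were Sox3 and Sox18. Among all protein-coding genes 8.82% were marked (1908 of 21631). By group, 3 of the 4 listed members of group B (Sox2, also of group B1, is described with the remaining Sox genes), all 3 of group E and 2 of 3 of group F were marked. Each replicate alone named the same 8 genes, where it named 12.8% of all protein-coding genes in replicate 1 and 12.4% in replicate 2. The same 8 genes were also the ones overlapped by a region in both replicates, where the share over all genes was 13.3%. The shares over all genes stand beside these counts as a description, and no test of the list was made. All 10 genes are short, from 1.80 kb for Sox18 to 9.58 kb for Sox10, and among protein-coding genes under 10 kb 8.98% were marked.

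**Figure D1:**
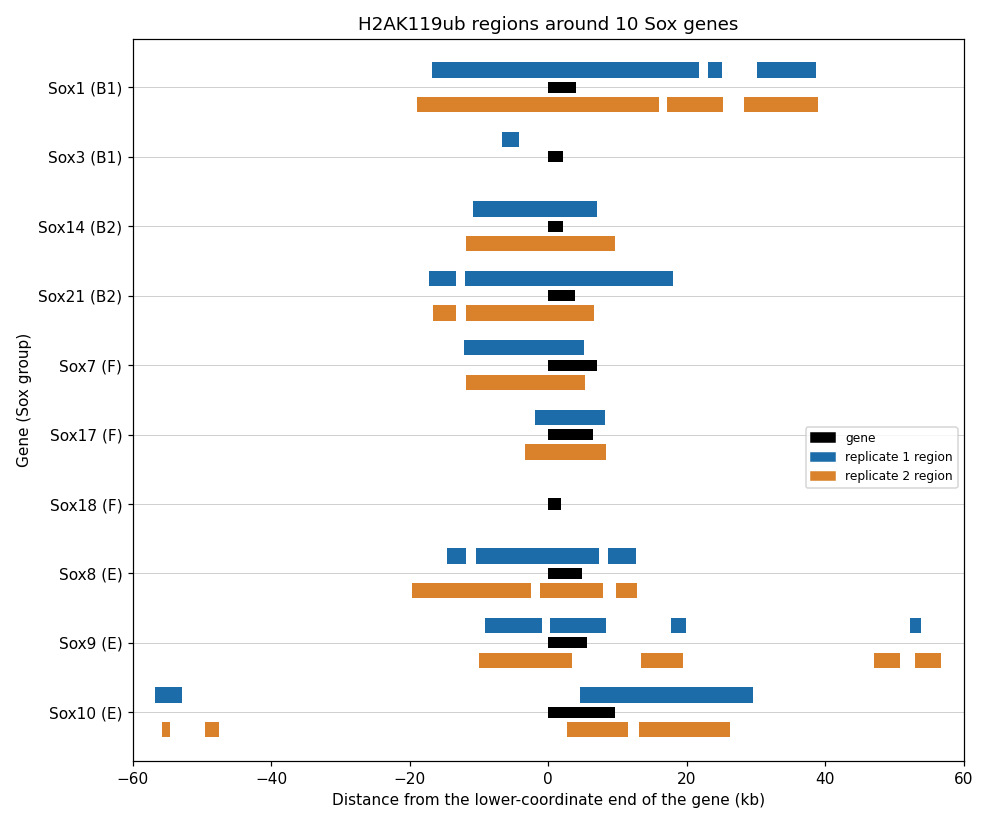
H2AK119ub regions within 60 kb of the 10 Sox genes, in kb from the lower-coordinate end of each gene (x axis), with 1 row per gene (y axis). Black boxes are genes, blue boxes replicate 1 regions and orange boxes replicate 2 regions. Of the 10 rows, 8 have a region over the gene in both replicates, and those of Sox3 and Sox18 have none over the gene.

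In group B, Sox1, an early factor of the neural plate, had the widest region of the 10 genes. The gene (chromosome 8, 12395519 to 12399555) lay inside a promoter region that spanned 12378730 to 12417235 in replicate 1 (38.5 kb) and 12376578 to 12411532 in replicate 2 (35.0 kb). These widths stood at percentiles 97.6 and 97.8 of the promoter regions of their lists. The regions reached 16.8 and 18.9 kb before the start shown above and 21.7 and 16.0 kb past it. Both also carried the name of Sox1ot, a long noncoding RNA gene whose bounds enclose Sox1, and each list had 2 further gene body regions named for Sox1ot (2.06 and 8.42 kb in replicate 1, 8.06 and 10.7 kb in replicate 2).

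Sox14, a repressor of specific neuron classes, lay in a promoter region of 17.9 kb in replicate 1 (chromosome 9, 99863261 to 99881136) and 21.4 kb in replicate 2 (99862277 to 99883660). This region was the only one within 100 kb of the gene in each list. It extended 4.97 and 7.49 kb before the start and 12.9 and 13.9 kb past it. Sox21, which acts against Sox1 and Sox3 in neural progenitors, lay in a region of 30.0 kb in replicate 1 (chromosome 14, 118221246 to 118251259) and 18.6 kb in replicate 2 (118221268 to 118239892). The edges of these 2 regions on the side past the gene differed by 22 bp, while those on the promoter side differed by 11.4 kb. The region thus reached 14.2 kb before the start of Sox21 in replicate 1 and 2.86 kb in replicate 2.

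Sox3, the X-linked member of group B1, was overlapped by no region of the 2 lists. In replicate 1 the nearest region was an intergenic one of 2.48 kb that lay 4.27 kb from the gene (chromosome X, 60891366 to 60893430). In replicate 2 the nearest lay 2848 kb away. Over the whole X chromosome, 1.66% of protein-coding genes were marked (16 of 966), and whether the location of Sox3 on X bears on its lack of a region was not tested.

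All 3 members of group E were marked. Their promoter regions as deposited shared a smaller part of their bases between the replicates than those of Sox1 or Sox14. This was not particular to group E, since Sox21 of group B, at 62.1%, was close to Sox9, at 62.3%. Sox8, which acts with the other group E factors in the neural crest and in oligodendrocytes, was wholly covered (chromosome 17, 25565893 to 25570686). Its promoter region was 17.8 kb wide in replicate 1 and 9.20 kb in replicate 2. Replicate 2 had a distal region of 17.1 kb that ended 1282 bp before the promoter region began, a gap that the replicate 1 promoter region spanned. Replicate 1 was broken farther out, with a distal region of 2.74 kb and a gap of 1350 bp before its promoter region. Both promoter regions also named 2810468N07Rik, a noncoding gene that RefSeq lists as Cerox1. A further promoter region of 4.05 and 3.07 kb named the neighbour Lmf1, whose near end lies 8.49 kb from Sox8.

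Sox9 drives cartilage formation and is also a factor of many epithelial progenitors. Replicate 1 had a pair of promoter regions at the gene (chromosome 11, 112782210 to 112787757), of 8.27 kb from 112773085 to 112781357 and of 8.15 kb from 112782442 to 112790595. Replicate 2 had a single region of 13.4 kb from 112772223 to 112785619 that spanned the 1085 bp gap between them. Regions covered 95.8% of the gene bounds in replicate 1 and 61.5% in replicate 2. The 2 replicate 1 regions stood at percentiles 51.1 and 50.6 of promoter widths, the lowest of any member, against 78.4 in replicate 2.

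Sox10, the factor of Schwann cells and melanocytes, was the member whose own named promoter regions agreed least. A promoter region of 25.0 kb ran from 79159477 to 79184475 on chromosome 15 in replicate 1, and one of 8.85 kb from 79157569 to 79166422 in replicate 2. Their shared bases made up 25.8% of the bases that either covered. In replicate 2 a second promoter region of 13.1 kb, named for the noncoding gene Gm10863 alone, began 1619 bp further on. It lay inside the span of the replicate 1 region and was not counted in that percentage. Part of the gene at its lower-coordinate end stayed outside the calls, since regions covered 52.3% of the gene bounds in replicate 1 and 72.3% in replicate 2.

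In group F, the regions at Sox7 and Sox17 were the closest matches between the replicates. Sox7, a factor of vessel and primitive endoderm development, lay on chromosome 14 (63943706 to 63950732) and had promoter regions of 17.3 kb in both lists. Their edges differed by 222 and 253 bp, and shared bases made up 97.3% of the bases that either covered. The regions extended 12.2 and 12.0 kb beyond the lower-coordinate end of the gene and stopped 1.92 and 1.66 kb short of the other end.

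Sox17, a factor of definitive endoderm and arterial endothelium, was covered from end to end (chromosome 1, 4490928 to 4497426). Its regions were 10.1 and 11.6 kb wide and overran the gene by 1.72 to 3.30 kb on each side. Shared bases made up 87.1% of the bases that either covered. Sox18, a factor of lymphatic vessel development, had no H2AK119ub region within 100 kb in the 2 lists. The nearest to the gene (chromosome 2, 181669837 to 181671640) lay 204 kb away in replicate 1 and 356 kb away in replicate 2. The group therefore held both the member with the closest agreement between replicates and the autosomal member farthest from any region.

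The agreement between the replicates was then set out for all 8 marked genes. All 9 replicate 1 regions of the members overlapped a replicate 2 region, and 7 of them did so with each region covering at least 50% of the other. For shared bases, only promoter regions that named the gene were counted. As a percentage of the bases that these regions covered in either replicate, shared bases were 80.7% for Sox1, 83.6% for Sox14, 62.1% for Sox21, 46.6% for Sox8 and 62.3% for Sox9. The median over the 8 genes was 71.5%, beside 64.9% over all 1908 marked genes. Of the 8, Sox8 and Sox10 had the lowest percentages, with Sox10 at percentile 9.33 among all marked genes and Sox7 at percentile 97.9. At Sox8 and Sox10 the replicate 1 region was also overlapped by a replicate 2 region that did not name the gene. Those bases were not counted as shared, so the 2 low percentages rest partly on how calls were broken and named.

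Widths at the members had a median of 17.9 kb in replicate 1 and 15.4 kb in replicate 2, taking the widest promoter region of each of the 8 genes. The same quantity over all marked genes was 10673.5 and 9079.5 bp. Of the 8 genes, 6 in replicate 1 and 7 in replicate 2 lay above that median. Sox17 and Sox9 fell below it in replicate 1, and Sox10 in replicate 2. Between the replicates, the regions of Sox21, Sox8 and Sox10 were wider in replicate 1, by 1.61, 1.94 and 2.82 times. The replicate 2 region of Sox9 was 1.62 times as wide as the wider one of replicate 1.

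Part of these differences in width lay in where a call was broken. No list had neighbouring regions closer than 999 bp, and gaps of at most 2000 bp made up 8.19% of gaps in replicate 1 and 7.46% in replicate 2. Such gaps stood beside the regions of Sox1, Sox21, Sox8, Sox9 and Sox10. With them joined, a choice made after seeing the data, Sox10 measured 25.0 and 23.6 kb, so that the wider was 1.06 times the narrower where it had been 2.82 times. Sox8 measured 27.3 and 32.4 kb (1.19 times), Sox9 17.5 and 13.4 kb (1.31 times) and Sox1 41.9 and 44.1 kb (1.05 times). Sox21 remained at 35.3 and 23.3 kb (1.51 times), so joining did not bring its replicates to a similar width.

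**Figure D2:**
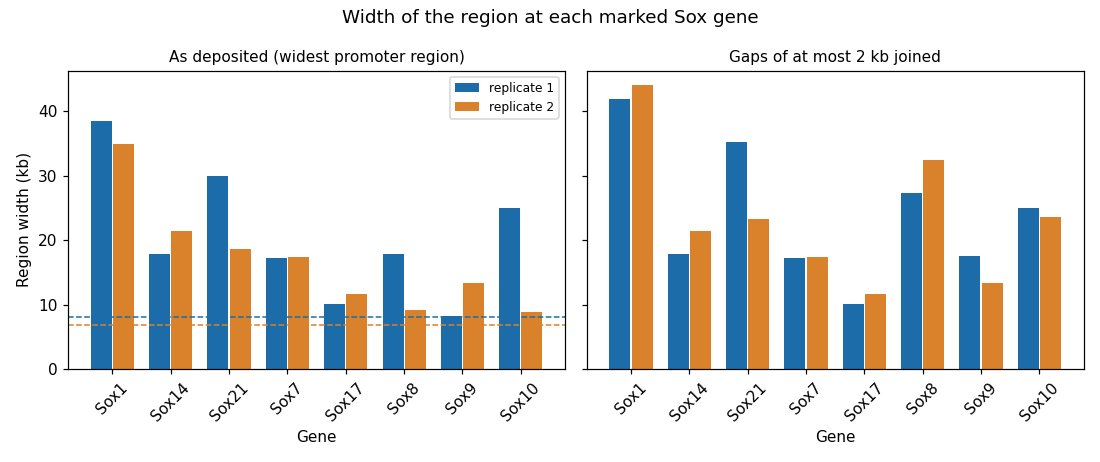
Region width in kb (y axis) at the 8 marked Sox genes (x axis), for replicate 1 (blue) and replicate 2 (orange). The left panel gives the widest promoter region as deposited, with dashed lines at the median promoter region of each list (8080 and 6843 bp), and the right panel gives widths after gaps of at most 2000 bp were joined. Sox10 measures 25.0 and 8.85 kb on the left and 25.0 and 23.6 kb on the right.

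In both replicates regions covered 100% of the bounds of Sox1, Sox14, Sox21, Sox17 and Sox8. This is 5 of the 10 members, beside 1.89% of all protein-coding genes. At least 50% of the bounds was covered in both replicates for 8 of the 10, beside 3.66% of all protein-coding genes. Of the 8 marked members 5 were wholly covered, beside 49.1% of all marked genes under 10 kb (341 of 695). The median coverage of those marked genes was 100% in each replicate. Coverage of the other marked members was 74.5% ± 2.55 for Sox7 (SD, n = 2), 78.6% ± 24.3 for Sox9 (SD, n = 2) and 62.3% ± 14.1 for Sox10 (SD, n = 2). For Sox9 and Sox10 the difference between replicates was thus much larger than for Sox7.

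**Figure D3:**
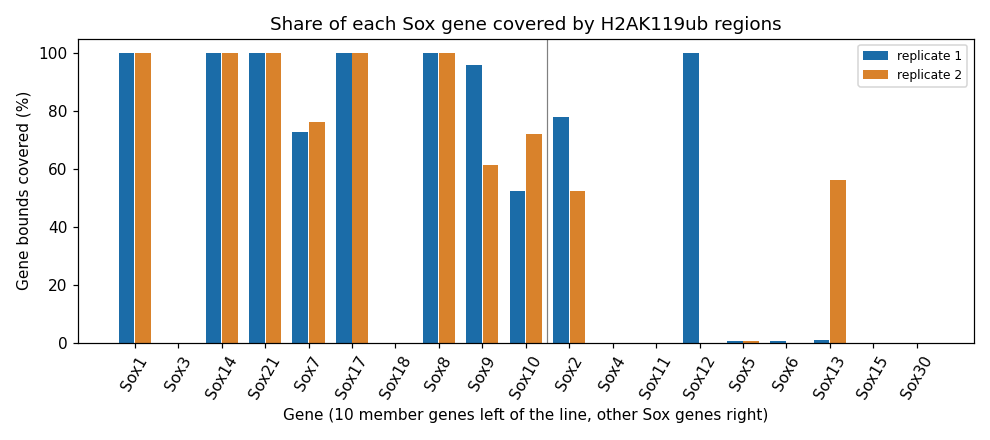
Percentage of the gene bounds covered by H2AK119ub regions (y axis) for the 10 member genes and for 9 other Sox genes, Sox2 included (x axis), in replicate 1 (blue) and replicate 2 (orange). Bars reach 100% in both replicates for Sox1, Sox14, Sox21, Sox17 and Sox8, and for no gene right of the line.

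The surroundings of the members were next examined within 100 kb of either gene end. Beyond the members' own regions, replicate 1 had 14 regions there and replicate 2 had 18, of which 10 and 12 overlapped a region of the other list. They were of all location classes. Their median widths were 3.50 and 4.63 kb, beside 4864 and 4219 bp over all regions of the 2 lists. Covered length within 100 kb, own regions included, had a median of 24.4 and 27.2 kb over the 8 marked members. Over all marked genes it was 26.4 and 24.3 kb, and over all protein-coding genes 2.29 and 2.09 kb. In this respect the marked members were close to marked genes in general.

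Protein-coding neighbours were checked only for promoter regions that named them. Of the 20 nearest protein-coding genes, 1 on each side of each member, only Lmf1 beside Sox8 was marked. This is not far from the share over all protein-coding genes (8.82%). Pick1, 64.7 kb from Sox10, was named by a promoter region in replicate 1 alone, and Il20rb, 582 kb from Sox14, in replicate 2 alone. Polr2f, which lies 3.14 kb from Sox10, was named by no promoter region. Noncoding genes shared the promoter regions of Sox1, Sox8 and Sox10 in both lists. Sox21 shared its own with the name LOC105245869, which had no match in the reference. Among all promoter regions that named a protein-coding gene, 9.29% in replicate 1 and 8.98% in replicate 2 also named a gene that the reference lists as noncoding.

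Among the members, the longest interval without another protein-coding gene was that around Sox9, whose long-range enhancers are known to lie far from the gene. It runs 1056 kb to Gm11677 on the lower-coordinate side and 457 kb to Slc39a11 on the other. Replicate 1 had 8 regions in it and replicate 2 had 9, of which 7 and 6 overlapped a region of the other list. With the regions at Sox9 itself included, they covered 5.86% and 5.09% of the interval, against 2.31% and 2.03% for the whole gene-bearing span. The interval was picked because it surrounds Sox9, a marked gene, so these shares describe it only. Apart from the regions at the promoter, the lower-coordinate side held 1 region in replicate 1 (2.91 kb, 522 kb from Sox9) and 0 in replicate 2. On the other side, a promoter region named for 2610035D17Rik was the widest of the interval, at 28.8 and 33.7 kb. It began 394 kb in replicate 1 and 392 kb in replicate 2 from the lower-coordinate end of Sox9, and in replicate 2 also named 4732490B19Rik. An intergenic region between it and Sox9 (9.37 and 5.10 kb, starting at 224 and 227 kb) was also called in both lists. A distal region farther out, named for 4732490B19Rik, was 28.0 kb wide in replicate 1 and 3.39 kb in replicate 2. Nothing in the files ties these distant regions to Sox9.

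**Figure D4:**
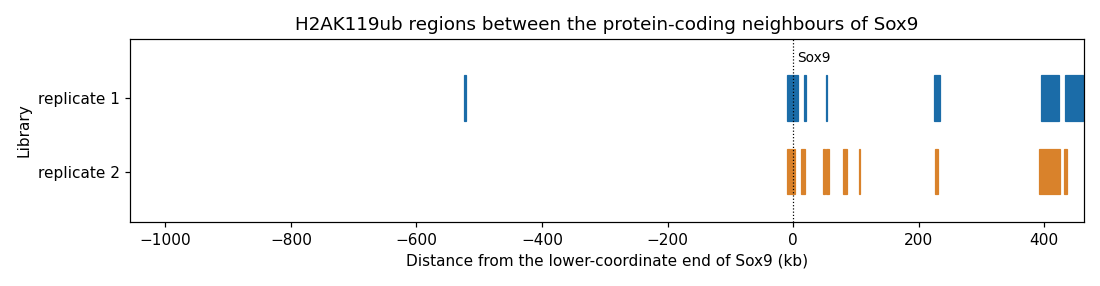
H2AK119ub regions between the 2 protein-coding neighbours of Sox9, in kb from the lower-coordinate end of Sox9 (x axis), with replicate 1 above and replicate 2 below (y axis). Apart from the promoter, the lower-coordinate side holds 1 region in replicate 1 and 0 in replicate 2, and the other side holds regions in both, the widest of them 28.8 and 33.7 kb.

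The remaining Sox genes are Sox2 of group B1 and 8 genes of groups C, D, G and H. Of these 9, 2 were marked, beside 8.82% of all protein-coding genes, namely Sox2 and Sox11. Sox2, the group B1 factor of taste progenitors, had regions of 6.42 and 2.93 kb that covered 78.0% and 52.4% of the gene. Sox11, a group C factor of immature neurons, had regions of 2.02 and 4.76 kb that began 817 and 745 bp beyond its promoter-side end and covered 0% of the gene. Sox12 of group C was covered from end to end by an 8.94 kb region in replicate 1 alone. A promoter region of 19.8 kb carried the name of Sox13, of group D, in replicate 2 alone. Sox4, also of group C, had a region of 1.36 kb in replicate 2 alone, 545 bp from the gene. Sox5 and Sox6, the group D partners of Sox9 in cartilage, had gene body regions of 2.94 to 4.91 kb and no promoter region, those of Sox6 in replicate 1 alone. Sox15 and Sox30 had no region over them. The difference between the 2 sets of Sox genes was not tested.

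The counts were repeated with other rules for tying a gene to a region in both replicates. With only regions above the median width of their list, 8 of the 10 members and 0 of the 9 other Sox genes were named by a promoter region, beside 6.31% of all protein-coding genes. Such wide regions overlapped the bounds of 8 members and of Sox13 among the others, beside 8.64%. With a region of any location class, the counts were 8 and 4, beside 15.3%. With a region within 1000 bp of either gene end they were 8 and 4 (9.93% of all genes), within 5000 bp 8 and 4 (14.1%) and within 50000 bp 8 and 6 (36.3%). With a promoter region in either replicate they were 8 and 5 (16.4%). The members named were the same 8 each time, so Sox3 and Sox18 did not have a region in both replicates even within 50000 bp. The rules of any location class and of either replicate are looser than the main rule, so they could not name fewer members.

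Among families of similar developmental role, 4 of 6 Gata genes (Gata2, Gata3, Gata4 and Gata6) and 11 of 17 T-box genes were marked, the latter being Tbx1, Tbx2, Tbx3, Tbx4, Tbx5, Tbx15, Tbx18, Tbx20, Tbx21, Tbr1 and Eomes, beside 8.82% of all protein-coding genes. Median widths of their widest promoter regions were 33.1 and 23.5 kb for Gata genes and 23.6 and 23.8 kb for T-box genes. Against these, the 8 Sox genes had medians of 17.9 and 15.4 kb. Sox1 alone, at 38.5 and 35.0 kb, exceeded the median of both families in both replicates. These differences were not tested either.

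Genes known to work with each Sox group were examined in the same way. Among neural genes tied to group B, Pax6, Nes, Neurog1, Neurog2, Pou3f2, Hes5 and Nkx2-2 were marked, while the migrating neuron gene Dcx was not. Their widest promoter regions ran from 11.2 kb (Hes5) to 46.7 kb (Pax6) in replicate 1 and from 12.5 kb (Nes) to 43.9 kb (Pax6) in replicate 2. Among neural crest genes tied to group E, Foxd3, Tfap2a, Tfap2b, Snai1 and Pax3 were marked, while Snai2, Mitf, Ets1, Erbb3, Ednrb, Dct and Ret were not. Widths there ran from 6.40 and 5.38 kb at Tfap2a to 74.5 and 68.1 kb at Pax3. Of 14 endothelial genes tied to group F, 3 were marked, namely the receptor gene Flt1 (21.3 and 16.9 kb), the Notch ligand gene Dll4 (21.1 and 14.1 kb) and the vein factor Nr2f2 (35.0 and 26.0 kb). Of 8 cartilage genes tied to group E, 2 were marked, the collagen gene Col2a1, a direct target of Sox9 (19.1 and 20.1 kb), and the matrix gene Comp (15.9 and 20.7 kb). The share over all protein-coding genes, beside which each of these lists stands, was 8.82%.

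Markers of the sorted cells and of other cell types could be read only as regions, since no RNA was measured. Of 9 epithelial markers, 3 were marked (Krt15, Krt13 and Krt4), while Epcam, Krt5, Krt14, Trp63, Cdh1 and Itga6 were not, beside 8.82% of all protein-coding genes. Of 4 endothelial markers 0 were marked, with Kdr named in replicate 1 alone. Marked genes of other cell types were Pdgfra and Twist1 (2 of 3 mesenchyme markers), Myod1 (1 of 3 muscle markers) and Csf1r (1 of 2 immune markers). Of 4 glial and melanocyte markers only Sox10 was marked, and it is a member already counted above. Whether other cell types in the sort bear on the regions at the group E and F genes was not tested.

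The promoter sequences were compared with those of other protein-coding genes. Over the 300 bases from 250 before to 50 after the start, GC content was 70.7% for Sox1, 66.0% for Sox14, 65.7% for Sox21 and 66.3% for Sox8, against a median of 56.7% over 21045 promoters of 17274 genes. The ratio of observed to expected CpG, which corrects the CpG count for base composition, was 1.07 for Sox1, 0.82 for Sox14, 0.69 for Sox21 and 0.65 for Sox8. Its median was 0.68 over promoters of marked genes and 0.56 over those of unmarked genes. The 4 members stood at percentiles 96.0, 74.0, 59.2 and 55.7 of all promoters, so that only Sox1 was near the top. Among the other Sox genes, the marked Sox2 and Sox11 each had a ratio of 0.82. Sox12, with a promoter region in replicate 1 alone, had 1.07. Sox13 and Sox4, with a promoter region in replicate 2 alone, had ratios of 1 and 0.68. Genes without a promoter region were Sox15 (0.24), Sox5 (0.26), Sox6 (0.16 to 0.67 over its promoters) and Sox30 (0.77). Whether CpG content bears on the calls was not tested.

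**Figure D5:**
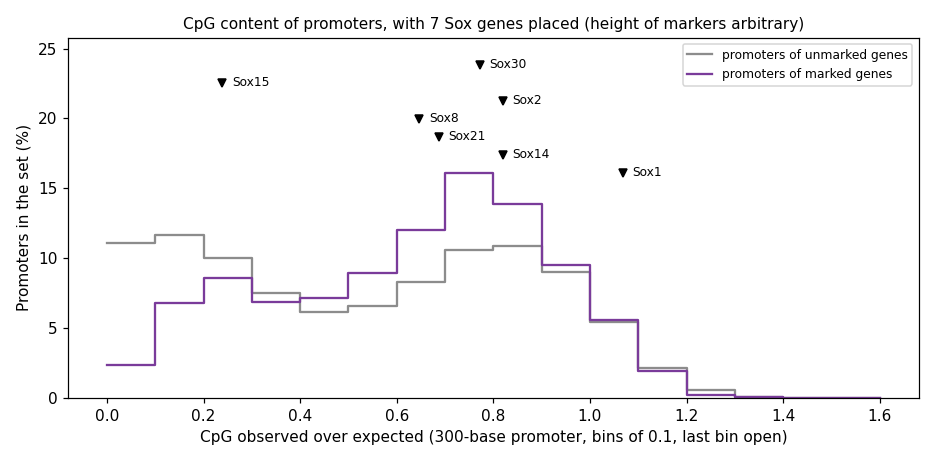
Distribution of the observed over expected CpG ratio (x axis) as a percentage of the promoters of marked genes (purple) and unmarked genes (grey) in each bin of 0.1 (y axis), with the values of 7 Sox genes marked by triangles whose height has no meaning. Sox1 stands at 1.07, Sox14 at 0.82 and Sox21 and Sox8 at 0.69 and 0.65, while the unmarked Sox15 and Sox30 stand at 0.24 and 0.77.

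Motifs bound by Sox proteins were searched in the same 300 bases on both strands. ACAAT and ACAAAG share their first letters but cannot match at the same position. ACAAT occurred in 27.1% and ACAAAG in 16.8% of all promoters, and in 19.5% and 11.8% of the promoters of marked genes. The promoters of Sox1, Sox14, Sox21 and Sox8 held 0 matches to either, and that of Sox2 held 1 match to ACAAAG. Among the other Sox genes, promoters of Sox5, Sox6, Sox15 and Sox30 also held matches. Such matches describe letters only, and their lack in this window says nothing about binding by Sox proteins.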

How the data were processed

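ChIP-seq for H2AK119ub was made from 2 control samples, and 1 list of regions per replicate was used. Bowtie2 2.3.3 and SAMtools 0.1.19 are named, with no role stated, per the submitters' processing notes. The deposited lists give chromosome, start and end in mm10, a location class and gene names, per the file headers. The sources used here do not give the peak caller, its settings or how the input was used. No score or read count accompanies a region. Width was taken as end minus start, and overlap was counted from 1 bp.

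Gene bounds, without strand, and promoters, with strand, came from RefSeq on GRCm38.p6. Names were matched by symbol, then by a synonym held by 1 gene. Of the 10 members, 4 had an entry in the promoter table. The members and lists were chosen with earlier results of these data known, so no test was run and counts stand beside the share over all genes. Named genes were all members, the other Sox genes, neighbours of members and marked genes of fixed lists. Markers that were not marked, and the genes picked out of other lists, were chosen after their values were seen. Some genes of these lists, and the counts that rest on them, are not reported here. The interval functions were tested on simulated data. Analyses used Python 3.11.15, numpy 2.4.6, pandas 2.3.3 and matplotlib 3.10.9.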

Additional observations from a re-analysis of the deposited data

How the results depend on the processing

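For 7 results, 32 values were computed under alternatives. Of these, 20 were counted as unchanged, 12 moved and 0 reversed. Unchanged does not mean equal, since a factor of 1.5 was allowed for counts. A count of 3 other Sox genes in place of 2 was thus still counted as unchanged. The count of 8 marked members was 8 under every alternative run. It could not fall with a promoter region in either replicate, with a region of any class or with a replicate left out, since these rules are looser. The count of other Sox genes marked (2) was 5 with a promoter region in either replicate, 4 with a region of any class, 4 within 1000 bp or 5000 bp of a gene end, 6 within 50000 bp, 0 with regions above the median width, and 3 to 4 when either replicate was left out, with 4 from replicate 2 alone. Of the 8 members overlapped in both replicates, 5 were wholly covered. With gaps of at most 2000 bp joined, the median width at members was 21436.5 bp in replicate 1 (17862 bp as deposited) and 22334.5 bp in replicate 2 (15358.5 bp). The median coverage of all 10 members (89.3%) was 66.3% with 5000 bp added on each side, and 88.2% to 97.9% when a replicate was left out. No paired analysis was possible because the 2 replicates form 1 group. With 2 lists and no read counts, the strength of a region and calls near the threshold could not be assessed.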
